A study of Drosophila melanogaster with 2 samples.

Results

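Dense clusters of neighbouring summits are stretches of the fly genome where the protein CG32767 was found at 3 or more separate sites in a row. They were chosen by position from the authors' conservative peak list, a list made from both replicates and filtered by reproducibility. Each peak has a summit, the base of its highest signal. Summits within 400 bp of each other were merged by keeping the one of highest signal, and those left were chained where the next lay within 5000 bp. Members are the summits in chains of 3 or more. Of 3264 summits left after merging on the arms 2L, 2R, 3L, 3R, 4 and X, 661 were members, and they formed 183 chains. The other 2603 were 1777 single summits and 826 in pairs. The data come from chromatin immunoprecipitation and sequencing of whole Drosophila melanogaster embryos, 0 to 24 hours old, from flies with a transgene for CG32767 fused to eGFP. An antibody against GFP pulled down the fusion in 1 group of 2 biological replicates, 1 library each. All samples carry the transgene, and no control library was analysed here. No source used here names the promoter that drives the transgene. Peak lists hold no expression, so the labelled stage could not be checked against marker genes.

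A transcription factor is found mostly at promoters, around transcription start sites (TSSs), and at enhancers, which often lie in introns or between genes. Long genes with regulatory or developmental roles commonly have several enhancers, and a factor may be found at several of them in 1 locus. In an embryo that mixes many cell types, neighbouring summits can come from the same cells or from different ones, and peak lists cannot tell these apart.

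Sequences that reach 50 bp to either side of summits are shown for 4 chains of high summed signal, all on the X. The chain at HmgZ and HmgD was left out, though its summed signal (1776) was above that at CHES-1-like (1643). That the 4 chains share an arm thus follows partly from this choice and is not a result. Bases are those of the RefSeq release 6 assembly (dm6), forward strand, and capitals mark any of 10 words of 7 letters made of A and T that were most enriched at the summits outside the chains. The chain at the non-coding RNA gene lncRNA:CR44619 is shown whole because every summit of it holds such words.
lncRNA:CR44619, summit 1 (chrX:12751338-12751438): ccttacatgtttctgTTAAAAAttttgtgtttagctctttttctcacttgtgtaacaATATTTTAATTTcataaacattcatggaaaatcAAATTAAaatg
lncRNA:CR44619, summit 2 (chrX:12752298-12752398): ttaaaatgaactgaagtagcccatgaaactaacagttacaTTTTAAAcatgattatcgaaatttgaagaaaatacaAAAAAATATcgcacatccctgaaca
lncRNA:CR44619, summit 3 (chrX:12754466-12754566): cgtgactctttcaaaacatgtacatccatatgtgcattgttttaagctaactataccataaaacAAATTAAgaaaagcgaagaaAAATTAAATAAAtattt
lncRNA:CR44619, summit 4 (chrX:12755318-12755418): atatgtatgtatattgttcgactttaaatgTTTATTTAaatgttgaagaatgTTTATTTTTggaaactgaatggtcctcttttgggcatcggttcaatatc
The chain at ph-p, which encodes a Polycomb group protein, is shown whole because it holds the member of highest signal, the third.
ph-p, summit 1 (chrX:2134426-2134526): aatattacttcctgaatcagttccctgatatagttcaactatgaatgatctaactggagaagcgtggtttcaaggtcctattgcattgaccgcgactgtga
ph-p, summit 2 (chrX:2135331-2135431): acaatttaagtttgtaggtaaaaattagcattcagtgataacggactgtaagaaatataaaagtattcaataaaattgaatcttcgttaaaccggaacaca
ph-p, summit 3 (chrX:2137279-2137379): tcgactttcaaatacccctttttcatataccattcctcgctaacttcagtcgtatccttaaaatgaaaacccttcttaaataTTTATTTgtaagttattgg
ph-p, summit 4 (chrX:2137900-2138000): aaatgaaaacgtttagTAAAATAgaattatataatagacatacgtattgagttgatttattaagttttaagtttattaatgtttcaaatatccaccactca
Of the 9 summits at Raf, which encodes a kinase of the MAPK cascade, only the seventh holds any marked word. The strongest pair and the sixth are shown as examples without one. The sixth carries a run of GA repeats.
Raf, summit 3 (chrX:2297680-2297780): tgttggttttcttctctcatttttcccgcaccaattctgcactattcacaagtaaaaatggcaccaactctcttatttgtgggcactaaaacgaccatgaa
Raf, summit 5 (chrX:2300643-2300743): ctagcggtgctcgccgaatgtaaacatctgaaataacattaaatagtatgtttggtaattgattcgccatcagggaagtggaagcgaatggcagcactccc
Raf, summit 6 (chrX:2302237-2302337): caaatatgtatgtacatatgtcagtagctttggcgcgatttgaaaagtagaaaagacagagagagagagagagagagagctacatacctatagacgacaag
The strongest pair of summits at CHES-1-like, which encodes a forkhead transcription factor, is shown because both hold the words, unlike those at Raf.
CHES-1-like, summit 4 (chrX:7698360-7698460): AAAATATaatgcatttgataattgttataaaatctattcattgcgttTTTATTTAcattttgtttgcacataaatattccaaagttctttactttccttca
CHES-1-like, summit 9 (chrX:7706922-7707022): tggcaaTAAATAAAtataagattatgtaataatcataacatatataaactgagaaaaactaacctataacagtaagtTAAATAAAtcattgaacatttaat

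Most chains were short. There were 118 chains of 3 summits, 40 of 4, 15 of 5, 4 of 6, 3 of 7 and 3 of 9. Their spans from the first summit to the last ran from 1125 to 20007 bp, with a median of 5224 bp. Gaps between neighbours ran from 473 to 4925 bp, with a median of 1890.5 bp. These values follow from the rule and are a description. The largest gap that was merged was 375 bp and the smallest that was kept was 473 bp. Just inside the chaining limit lay gaps of 4925 bp between lute and sds22, 4919 bp between Rac1 and Ctr9, and 4914 bp between CG14314 and CG7183. Just outside it lay gaps of 5028 bp between l(2)k01209 and CG6550, 5036 bp within Fhos, and 5181 bp between noc and tRNA:Pro-AGG-1-1. Behind the 661 members stood 715 peaks, since 50 members had been merged from several.

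Members made up similar shares of the summits on most arms. They were 23.6% of summits on 3L (169 of 717, 95% exact interval 20.5 to 26.9), 22.0% on the X (125 of 567, 18.7 to 25.7), 21.5% on 2L (130 of 605, 18.3 to 24.98) and 19.7% on 2R (124 of 630, 16.6 to 23.01). On 3R the share was 15.4% (113 of 736, 12.8 to 18.2). Its interval lies below those of 2L, 3L and the X and overlaps that of 2R. The fourth chromosome had 9 summits and no member, which allows a share of up to 33.6% by the exact interval. This depends on the list, since the rule gave 6 members on that chromosome in the list of replicate 2, 3 in the authors' other combined list and 0 in the list of replicate 1. The 3 chains of 9 summits all lay on the X. Intervals here and below are exact Clopper-Pearson intervals that cover counting error alone. They assume independent sites, and members of a chain share a neighbourhood, so they may be too narrow.

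Members lay at promoters less often than other summits, and more often in introns or between genes. A TSS lay within 500 bp of 266 members (40.2%, 95% exact interval 36.5 to 44.1). The same held for 1378 other summits (52.9%, 51.0 to 54.9) and for 50.4% of all merged summits. Introns held 268 members (40.5%, 36.8 to 44.4) and 33.8% of the others (32.0 to 35.6). Intergenic sequence held 100 members (15.1%, 12.5 to 18.1) and 10.9% of the others (9.77 to 12.2). Coding exons held 1 member, 5' untranslated regions 3, 3' untranslated regions 10 and non-coding exons 13. The intervals of members and others did not overlap for promoters, introns or intergenic sequence, and no further test was run on them.

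The promoter share was lowest in the largest chains. It was 53.9% (51.6 to 56.2) of single summits, 50.8% (47.4 to 54.3) of those in pairs, 43.8% (38.5 to 49.1) in chains of 3 and 45.0% (37.1 to 53.1) in chains of 4. In chains of 5 or more it was 26.5% (39 of 147, 19.6 to 34.4), an interval that lies below all the others. In these chains 49.7% of summits (41.3 to 58.0) lay over 2000 bp from any TSS, against 23.7% (19.4 to 28.5) in chains of 3. The median distance to the nearest TSS was 858 bp for members, 1936 bp for those in chains of 5 or more, and 422 bp for the other summits. The plot of annotation by chain size shows these shares.

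**Figure D1:**
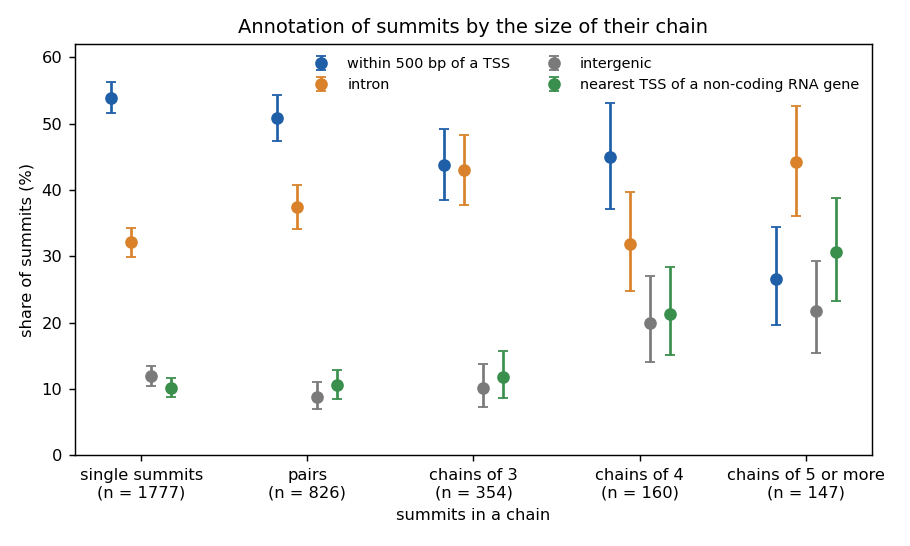
Share of summits (y axis, percent) in each annotation class by the number of summits in their chain (x axis); points are shares and bars their 95% exact intervals. The promoter share (blue) is 53.9% for single summits and 26.5% in chains of 5 or more, while the share nearest to a non-coding RNA gene (green) is 10.2% and 30.6%.

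Non-coding RNA genes were nearest to the large chains more often. A non-coding RNA gene had the TSS nearest to 121 members (18.3%, 95% exact interval 15.4 to 21.5), against 10.3% of the other summits (9.15 to 11.5). In chains of 5 or more the share was 30.6% (23.3 to 38.7), and in chains of 4 it was 21.3% (15.2 to 28.4). In chains of 3 it was 11.9% (8.69 to 15.7), an interval that overlaps that of the other summits. Several named chains show it, as at lncRNA:CR44619, and at lncRNA:CR44603 and lncRNA:CR45695 on 2L.

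The chains lay in stretches denser in start sites than the arms as a whole. Stretches around other summits were not measured, so this density was not shown to be particular to chains. Their spans covered 1048758 bp, 0.783% of the arms, and held 399 distinct TSSs, or 3.80 per 10 kb against 1.76 over the 6 arms. Even so, 44 of the 183 chains held no TSS between their first and last summit. Promoter summits of the members sat upstream of the TSS in 182 of 266 cases (68.4%, 62.5 to 74.0), against 1006 of 1378 for other summits (73.0%, 70.6 to 75.3). Among the strongest of each chain the count was 60 of 73 (82.2%, 71.5 to 90.2). For promoter members that were not the strongest the count was 122 of 193 (63.2%, 56.0 to 70.02).

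Many chains lay within a single long gene. In 68 chains (37.2%, 95% exact interval 30.1 to 44.6) all summits lay in the span of 1 gene, and in 67 of these it was a protein-coding gene. These 67 genes had a median length of 25321 bp, against 3668.5 bp for the 3796 protein-coding genes with any summit within 2000 bp and 2166 bp for all 13945. A long gene has more room to hold a whole chain, so their length was not read further. All summits were intronic in 27 chains, intergenic in 10 and at promoters in 20, while 42 chains had no promoter summit. The nearest TSS was of 1 gene in 71 chains, of 2 genes in 74 and of 3 or more in 38.

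The chain at Raf and the neighbouring CG2865 had the highest summed signal of all, 2078, over 9 summits in 13925 bp. Signal is the authors' value in the units of their peak caller, and it ranks peaks within a list. The first summit lay 331 bp from a TSS of CG2865, the next in the 5' untranslated region of Raf, and the other 7 in introns of Raf, out to 12201 bp from its nearest TSS. The strongest, the third in order, had a signal of 464, with 289.6 in replicate 1 and 172 in replicate 2. The fifth had 441, with 277 and 159. These 2 stood above the other 7, which ran from 118.9 to 228 in the combined list, in both replicates too. Of the 9 summits, 8 were in both replicate lists, and the seventh (186) was in that of replicate 2 alone.

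CHES-1-like held a chain of 9 summits over 15371 bp, with a summed signal of 1643. The fourth summit was the strongest (364, with 209 in replicate 1 and 157 in replicate 2). The ninth followed at 328 (203 and 127), in an intron and nearest to lncRNA:CR43287. Only the third lay at a promoter, 338 bp from a TSS of CHES-1-like, and its signal was 177 (96.5 and 81.4). The other large chain on the X ran over CG4558, CG14434, lncRNA:CR45531 and CG43736, with 9 summits in 13736 bp. It was weaker and more even, from 78.4 to 187.9, and its strongest summit was the promoter of CG14434 (123 in replicate 1 and 64.1 in replicate 2). In replicate 2 the intronic summit 6017 bp along was the highest of the chain (91.2, with 107 in replicate 1).

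**Figure D2:**
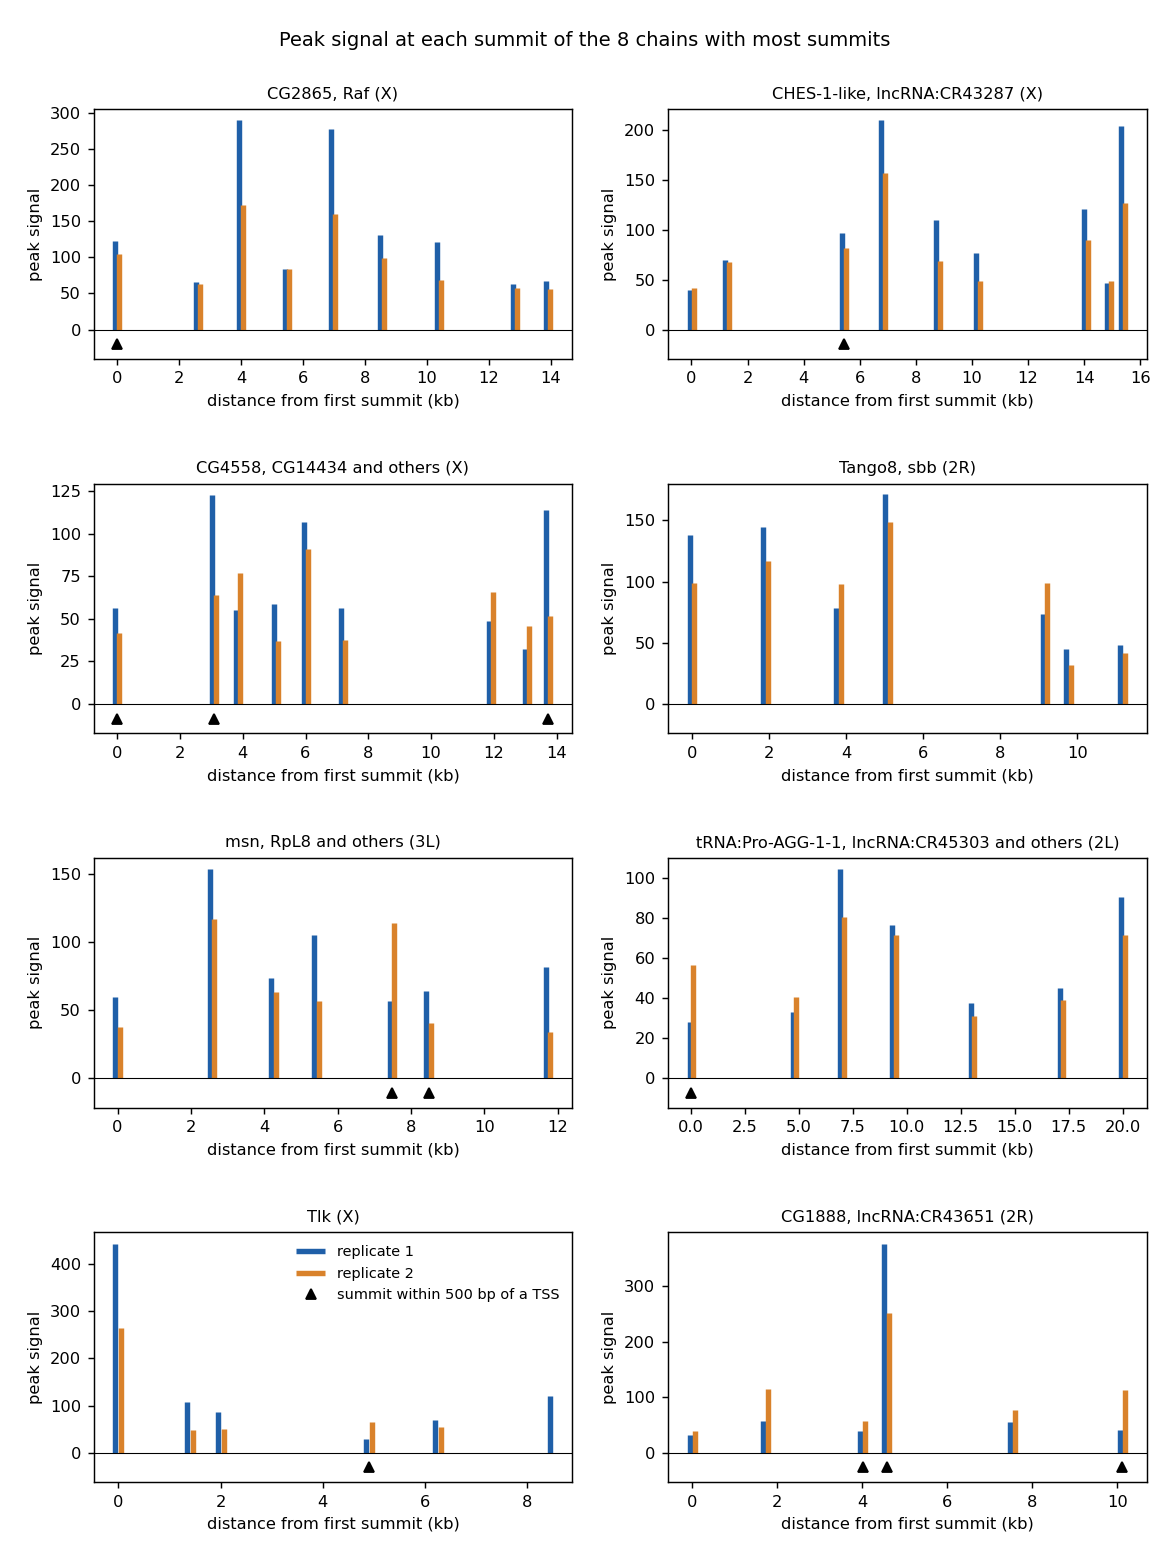
Peak signal in replicate 1 (blue) and replicate 2 (orange), y axis, in the authors' units on a scale of its own in each panel, against distance from the first summit (x axis, kb) for the 8 chains with most summits; black triangles mark summits within 500 bp of a TSS. At Raf the summits at 3988 and 6951 bp stand above the rest in both replicates, and at Tlk the last summit has no replicate 2 bar because no candidate of that replicate overlapped it.

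Next in size were chains of 7 and 6 summits. At sbb (scribbler), which encodes a transcriptional corepressor, all 7 summits were intronic, 12740 to 22016 bp from the nearest TSS, and the fourth was the strongest (323, with 171.5 and 149 in replicates 1 and 2). A further chain of 3 lay 7096 bp away, with 2 summits in introns of sbb and the strongest (430.7) at its promoter, 172 bp from the TSS. With a margin of 2000 bp around its span sbb had 10 members, the most of any gene. At msn (misshapen), a Ste20-type kinase gene, the strongest of 7 summits was intronic (269, with 153 and 117). The 2 promoter summits of that chain were those of msn (157) and RpL8 (105), a ribosomal protein gene. At Tlk, the Tousled-like kinase gene, the first of 6 summits had 705 (443 and 265), against 96.4 to 224.6 for the others. At CG1888 the fourth of 6 stood out in the same way, with 625 (377 and 251), 233 bp from its TSS. The longest chain, 20007 bp, lay between genes on 2L near 2 tRNA genes and 2 long non-coding RNA genes. Of its 7 summits, 6 were intergenic, and none exceeded 181.9. The third longest (14303 bp) began beside kel, a gene for an actin-binding protein of ring canals, 36 bp from its TSS, and ran over lncRNA:CR44478 and Socs36E, a gene for a suppressor of JAK/STAT signalling. Its 5 signals were even, from 72.2 to 116.

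Other chains held few but strong summits. At lncRNA:CR44619 the 4 signals fell in order along 3980 bp, 1073, 494, 281 and 136.9. Replicate 1 gave 599.5, 289, 151 and 86.8, and replicate 2 gave 444, 196, 126 and 49.2. The order was the same in both. HmgZ and HmgD, neighbouring genes for HMG-box chromatin proteins, shared a chain of 5 with 1 summit of 975.9 (656 and 323) in an intron, 599 bp from a TSS of HmgZ. On 2L, a chain of 4 intergenic summits near lncRNA:CR44603 and lncRNA:CR45695 reached 476 (304 and 179), at least 3727 bp from any TSS. Another chain, at chinmo, a gene for a BTB-domain transcription regulator, began 5373 bp beyond it, just past the chaining limit. The shortest chains lay at Rack1 and mts (1125 bp), CG33229 (1134 bp) and MEP-1 (1295 bp). In the CG33229 chain the 3 signals were nearly equal, 227, 244 and 262, and all 3 were higher in replicate 2 (159, 151 and 172) than in replicate 1 (86.0, 116.5 and 95.1).

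The 10 members of highest signal included sites at genes for chromatin proteins. The highest, 1250.3, lay 474 bp from a TSS of ph-p (745 in replicate 1 and 451 in replicate 2). The replicate 2 value is that of a wide candidate that the fourth ph-p summit also overlapped. The ph-d member of 687.7 lay 245 bp from the TSS of the neighbouring paralog (304 and 369). A member of 768 lay in an intron of Trl, which encodes GAGA factor, 1532 bp from the nearest TSS, that of CG42507 (466 and 306). A member of 564 lay inside osa, a gene for a SWI/SNF complex subunit, in a non-coding exon nearest to the TSS of lncRNA:CR46035 (332 and 224). The member of 874 near lncRNA:CR45643 (469 and 401) stood between 2 weak ones of 43.4 and 46.7, so its chain owed its place in the set to summits near the lower end. The member of 608 lay 38 bp from the TSS of lncRNA:CR44149 (382 and 211). Of these 10, the ph-d member alone was higher in replicate 2.

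The ph-d and ph-p chains lay 8728 bp apart on the X. The 2 genes are a known tandem duplication, and reads from identical stretches can be split between copies. In windows that reach 200 bp to either side, the strongest ph-d summit and the strongest ph-p summit shared an identical run of 49 bp, 40.8% A and T. It lay from -142 to -94 bp relative to the ph-p summit and from 89 to 137 bp relative to the ph-d summit. Neither summit itself is in this run. Only exact runs were sought, so a copy with mismatches could reach further. The run is shown as it stands at ph-p, in capitals, with 10 bp to either side.
ph-p and ph-d shared run (chrX:2137177-2137245): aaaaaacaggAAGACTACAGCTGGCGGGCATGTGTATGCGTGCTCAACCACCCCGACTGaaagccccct
The second ph-d and the fourth ph-p summit shared 20 bp, and the other pairs between these chains 8 to 12 bp. Within chains, 975 pairs of windows that do not overlap shared runs of 7 to 19 bp, with a median of 10 bp. Summits of a chain thus shared no exact run of 20 bp or more, and copies with mismatches were not sought.

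Signals within chains were uneven. In 126 of 183 chains (68.9%, 95% exact interval 61.6 to 75.5) the strongest summit had at least 2 times the signal of the weakest, and in 59 it held over 50% of the summed signal. The strongest stood at an end of the chain in 100 (54.6%, 47.1 to 62.003). It was a promoter summit in 73. Among the 121 chains that mix promoter and other summits, it was a promoter summit in 53 (43.8%, 34.8 to 53.1), while promoters were 45.2% of all summits in these chains. The interval includes that share, so promoter summits were not seen to lead their chains more often than their number gives. Median signal was 116 for members and 109 for other summits, with ranges that overlap almost wholly (8.72 to 1250.3 and 2.97 to 1304).

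Members were found in both replicate lists somewhat more often than other summits. Of the 661, 457 (69.1%, 65.5 to 72.6) overlapped a peak of the list of replicate 1, against 67.7% of all merged summits. For the list of replicate 2 the count was 438 (66.3%, 62.5 to 69.9), against 59.5% of all. Both lists held 348 (52.6%, 48.8 to 56.5), against 46.5% of all and 45.0% (43.1 to 46.9) of the other summits, and neither held 114 (17.2%). The combined list came from the same 2 replicates, so these counts are a description. The strongest summits of chains were in both lists in 149 of 183 cases (81.4%), and their weaker neighbours in 199 of 478 (41.6%). The strongest were picked by their signal in the combined list, so a higher share in both lists is largely built into that choice.

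Whole chains were also sought in each replicate's list. A chain needs 3 or more neighbouring summits in that list, so its share cannot be set against that of single summits. When the rule was applied to the list of replicate 1, it gave 114 chains, and 90 of the 183 main chains overlapped one (49.2%, 41.7 to 56.7). The list of replicate 2 gave 109, and 82 main chains overlapped one (44.8%, 37.5 to 52.3). A chain in both lists was found for 56, in neither for 67. Among these 67 were the longest chain, on 2L, and those at Rack1 and mts, at MEP-1, inside osa and near lncRNA:CR45643. From the other side, 90 of the 114 chains of replicate 1 (78.9%) and 82 of the 109 of replicate 2 (75.2%) overlapped a main chain. In 49 main chains at least 3 summits were in both lists, in 19 every summit was, and in 19 none was.

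The order of summits within a chain could be compared between replicates, using the strongest overlapping candidate in each replicate's own ranked list. The same summit was strongest in both replicates in 116 of 179 chains (64.8%, 57.3 to 71.8). It was 73 of 117 among chains of 3, 27 of 38 among chains of 4 and 16 of 24 among larger ones. The full order of chains of 3 was the same in 38 of 117 (32.5%, 24.1 to 41.8). In 4 chains no comparison was made, because 3 members lacked a candidate in a replicate and 2 members at ph-p overlapped 1 wide candidate of replicate 2. Across 658 members, Pearson's r between the replicates' log2 signals was 0.73 and Spearman's rho 0.62, given as a description, since sites within a library share its depth. For 2570 other summits they were 0.72 and 0.56.

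**Figure D3:**
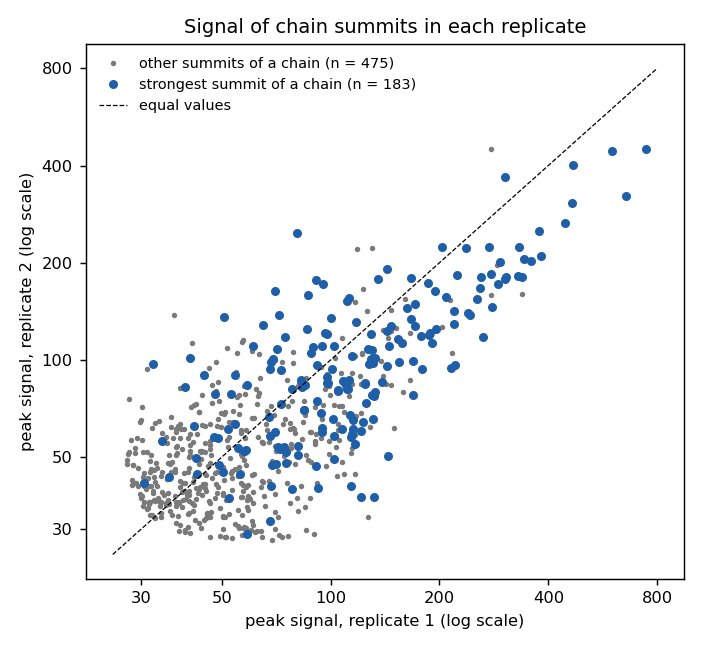
Peak signal of members in replicate 1 (x axis, log scale) and replicate 2 (y axis, log scale), in the authors' units; blue points are the strongest summit of each chain, grey points the others, and the dashed line marks equal values. The strongest summits reach 745 in replicate 1 and 451 in replicate 2, and most of the highest lie below the line. The value of 451 is that of a wide candidate that 2 ph-p members overlapped.

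Bases at member summits of the combined list were richer in A and T than those beside them. The rise was smaller in the list of replicate 2 taken alone, as given below. In the windows of 50 bp to either side of members the median was 65.3% A and T, against 59.4% in windows centred 500 bp to either side and 57.8% over the arms. For other summits the medians were 66.3% and 57.4%, so the step from flank to summit was smaller for members. Of the members' 1322 flanks, 42 reached the window of a neighbouring summit, and the median of the other 1280 was also 59.4%. The strongest summit of each chain had a median of 68.3%, and the other members 63.9%. Within chains, the strongest had a higher share than the mean of its neighbours in 116 of 183 (63.4%, 56.0 to 70.4), by a median of 3.56 percentage points. Promoter members had 63.4% and the rest 65.3%.

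**Figure D4:**
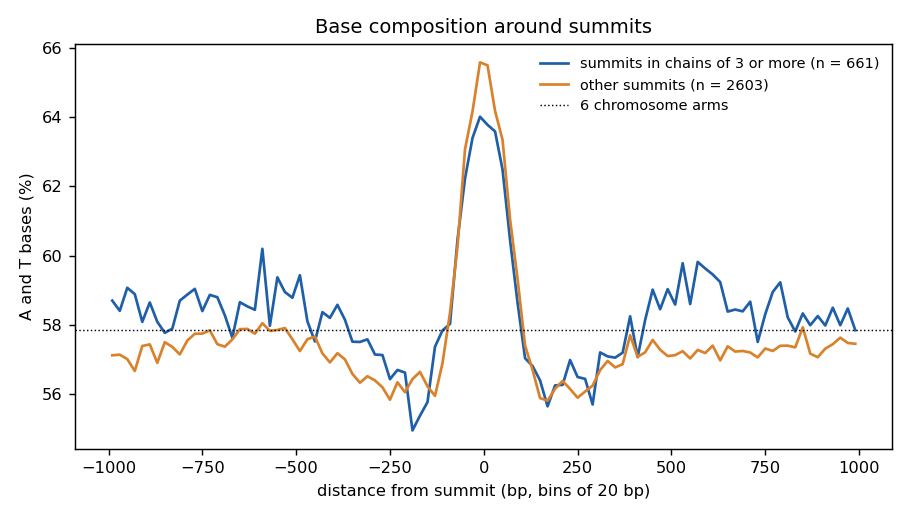
Percent of A and T bases (y axis) in bins of 20 bp by distance from the summit (x axis, bp), averaged over members (blue) and other summits (orange); the dotted line is the value over the 6 arms. In the bin just before the summit it reaches 64.0% for members and 65.6% for other summits.

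The base composition differed with the replicate list that held the summit. Members in the list of replicate 1 alone (109) had a median of 68.3% A and T and those in both lists (348) had 67.3%. Members in the list of replicate 2 alone (90) had 54.5%, below the 62.4% of their own flanks. Other summits were split the same way, with 68.3%, 69.3% and 56.4%. Over all merged summits, the list of replicate 1 had a median of 68.3% and that of replicate 2 had 63.4%, so the difference was a property of the whole lists. Members by the rule applied to each list had 67.8% in replicate 1, against 58.4% in their flanks. In replicate 2 they had 61.4%, against 60.4% in their flanks. With 1 library per replicate, a library's preference for certain base compositions and a difference in what was bound cannot be told apart.

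**Figure D5:**
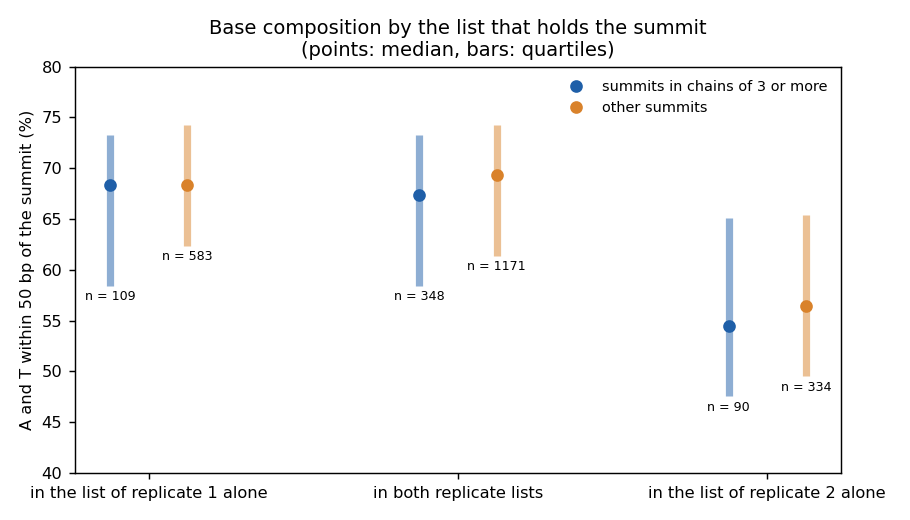
Percent of A and T within 50 bp of summits (y axis) for summits in the list of replicate 1 alone, in both lists or in that of replicate 2 alone (x axis); points are medians, bars run between the quartiles, and n is the number of summits. Members (blue) have medians of 68.3%, 67.3% and 54.5%, and other summits (orange) 68.3%, 69.3% and 56.4%.

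Where the members of a single replicate's list lay was less clearly apart. Of those in the list of replicate 1 alone, 29.4% (32 of 109, 21.0 to 38.8) were at promoters and 52.3% (42.5 to 61.9) in introns. Of those in the list of replicate 2 alone, 47.8% (43 of 90, 37.1 to 58.6) were at promoters and 33.3% (23.7 to 44.1) in introns, and both pairs of intervals overlap. For other summits the promoter shares were 47.3% (43.2 to 51.5) and 54.8% (49.3 to 60.2), and the intron shares 35.5% and 33.2%, so the introns were nearly level there. The CA repeat CACACACA, searched on both strands, was at 11 of the 90 summits in the list of replicate 2 alone (12.2%, 6.26 to 20.8). It was at 0 of the 109 in that of replicate 1 alone, which allows up to 3.33%, and their flanks held it in 3.89% and 6.88%, respectively. Among other summits the shares were 8.98% (6.14 to 12.6) and 2.74% (1.58 to 4.42). This motif was picked out of 24 after its values were seen.

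The A and T words marked in capitals above were ranked on the summits outside the chains, so their count at members is a separate measure. At least 1 of the 10 was at 352 members (53.3%, 49.4 to 57.1), against 40.5% (37.9 to 43.2) of their flanks. At other summits, which chose the words, the shares were 56.4% and 34.6%. The word AAAATAT was at 15.9% of members (13.2 to 18.9) and in 9.76% of flanks (8.21 to 11.5), and TTTAAAA at 11.5% (9.17 to 14.2) and 5.82% (4.62 to 7.23). TAAATAA was closer, at 9.23% (7.13 to 11.7) and 7.56% (6.20 to 9.12). The 10 words overlap each other in letters and follow the A and T content.

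Words were seen more often at members of higher signal. Among the strongest of each chain 61.7% (113 of 183, 54.3 to 68.8) held one, and among their neighbours 50% (239 of 478, 45.4 to 54.6). These 2 intervals overlap slightly. Above the members' median signal the share was 61.2% (55.7 to 66.5), and at or under it 45.3% (39.9 to 50.9). In 27 chains every summit held a word, as at lncRNA:CR44619, and in 14 none did. The strongest pair of summits at Raf held none, so a high signal was also seen without them. By list, the share was 35.6% (25.7 to 46.3) for the list of replicate 2 alone and 51.4% (41.6 to 61.1) for that of replicate 1 alone. In both lists it was 58.3% (53.0 to 63.6). This stands beside the difference in A and T content given above, whose part in it was not tested. The strongest were also more often in both lists, and the part of that in the values by rank was not tested.

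Motifs of known factors were counted at members and in the sequence beside them. Each of 24 was searched as exact letters on both strands. GAGAG, the core of GAGA factor sites, was at 12.1% of members (9.71 to 14.8) and in 13.5% of flanks. GCCAT, the core of Polycomb-recruiting PHO sites, was at 14.2% (11.6 to 17.1) and 16.6%, and CGATA at 12.1% (9.71 to 14.8) and 11.3%. The forkhead core TGTTTAC was at 3.63% (2.34 to 5.35) and in 1.89% of flanks (1.23 to 2.78), and TTTGAA at 16.0% (13.3 to 19.1) and 12.5% (10.7 to 14.4). GGTCACAC, the core of the promoter element Motif 1, was at 7 members (1.06%, 0.427 to 2.17) and 2 of 1322 flanks (0.151%, 0.0183 to 0.545). For each motif named here the intervals of members and flanks overlap, which does not show that the shares are alike. At other summits the shares, in the order named, were 12.6%, 13.8%, 12.6%, 2.73%, 15.5% and 0.538%. In members in both replicate lists TTTGAA was at 18.4% (64 of 348, 14.5 to 22.9) and in 10.9% of flanks, and in those of the list of replicate 2 alone at 8.89% (8 of 90, 3.92 to 16.8) and in 18.9%. Other summits were split the same way, so this was not particular to chains. TTTGAA was at 17.3% of those in both lists and in 9.65% of their flanks. For those in the list of replicate 2 alone it was at 7.78% and in 12.3% of flanks. This split was chosen after its values were seen.

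Genes near members were described with 15 lists of genes for early development, signalling, chromatin and basic functions, chosen with earlier results known. Of all protein-coding genes, 3.07% had a member in their span or within 2000 bp. Among genes for chromatin and insulator proteins it was 7 of 33 (21.2%, 8.98 to 38.9), ph-p, ph-d, Trl, osa, phol, mod(mdg4) and pita. Among cytoskeleton and cell shape genes it was 4 of 15, Act5C (228), tsr, the cofilin gene (204), alphaTub84B (195.6) and Rac1 (71.9), where values are the highest member signal. Among EGFR and MAPK pathway genes it was 3 of 14, the ligand gene spi (165) and the ETS factor genes aop (183.7) and pnt (125). Raf itself was not in that list. The intervals of these 3 lists lie above 3.07%, but these lists were also rich in genes with any summit, 21 of 33, 10 of 15 and 9 of 14, against 3796 of all 13945. No list was tested.

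For patterning and tissue genes the counts per list were small. None of 8 Hox genes, 7 pair-rule genes or 23 neurogenesis genes had one, which allows shares of up to 36.9%, 41.0% and 14.8%. The lists are not complete, so these counts cover the listed genes alone. For example, neur is in none of the lists, and a chain of 3 summits, the highest of 229, lay within it. That chain was not found in the list of either replicate. Of 14 maternal, gap and head patterning genes, slp1 (84.1) and slp2 (79.5) had one each. These 2 genes were counted here and not in the pair-rule list. Of 15 segment polarity genes, nkd (201.6) and the Hedgehog receptor gene ptc (134.9) had 3 each. The Dpp pathway had 1 of 17, shn (289.9), and the Notch pathway 1 of 14, E(spl)m3-HLH (178). Heart and muscle genes had 2 of 17, tin (357), the gene of a heart homeodomain factor, and kirre (107). Tracheal genes had 2 of 10, rib (236) and pnt. Ecdysone cascade genes had 2 of 12, Hr4 (291) and ftz-f1 (110.2). RNA regulators had 2 of 18, mbl (199) and shep (177), and mitochondrial ribosome genes 2 of 10, mRpL2 (165) and mRpL4 (145.6). CG32767 itself had 2 summits, the highest of 601.5, and no member.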

How the data were processed

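Chromatin immunoprecipitation was measured in 2 replicates of whole embryos. The authors deposited peak lists, filtered or ranked by the irreproducible discovery rate, for each replicate and for both combined, with dm6 coordinates per the labels. Per the labels' protocols chromatin was sonicated, with a size range of 200 to 800 and no unit. The peak signal and the summit position are the deposited values, and they were used as they stand. The sources used here do not name the aligner, the peak caller or the handling of controls. The lists hold no read counts, so depth is unknown.

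Of 8 deposited lists, 6 were used. The ranked lists of the combined replicates were left out because their replicate columns carry no names. Python 3.11.15, pandas 2.3.3, numpy 2.4.6, scipy 1.17.1 and matplotlib 3.10.9 were used. Genes and TSSs came from Ensembl release 115, without transposable elements, and bases from the RefSeq release 6 assembly. A replicate's signal is that of its strongest candidate overlapping the member by at least 1 bp. With 1 group, counts, medians and 95% exact intervals are given without tests. The chaining, the overlaps and the distance to the nearest TSS recovered the planted answers in simulated positions. The annotation classes and the word search were not checked in this way.

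Members and gene lists were chosen with earlier results of these data known. Named chains are the 8 with most summits, the 8 of highest summed signal, the 3 shortest of 3 summits and the 3 longest. Named members are the 10 of highest signal, and up to 4 genes per list were taken by their highest member. Others, such as the pairs at the chaining limit, the chromatin genes past the first 4, chinmo and neur, were named after their values were seen. Alternatives to the rule, the windows and the lists were tried.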

Additional observations from a re-analysis of the deposited data

How the results depend on the processing

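The size of the set follows the rule. With a chaining gap of 3000 bp there were 380 members in 111 chains, with 10000 bp 1239 in 315, and with at least 4 summits 307 in 65. The authors' other combined list gave 1152 in 310, and the upper 50% by signal 152 in 42. With the list of a single replicate there were 389 to 412 members in 109 to 114 chains. The promoter share was 44.7% with a gap of 10000 bp, 36.2% with at least 4 summits, 29.95% and 53.4% with promoter windows of 250 and 1000 bp, and 34.5% with protein-coding TSSs only. The share of chains within 1 gene was 48.6% and 25.1% with gaps of 3000 and 10000 bp. Median A and T was 63.4% with merging within 200 bp, 67.3% in the upper 50% by signal, 62.7% in windows of 100 bp to either side, and 61.4% to 67.8% with a single replicate's list. The share in both lists was 39.4% with the other combined list and 84.2% in the upper 50%. The same summit was strongest in 72.9% of chains with a gap of 3000 bp. The cause of these moves was not tested. Alternatives were run for these 7 results only, and their other values moved by less than the interval of the main value, or by less than 1.5 times for counts. The protein-coding TSSs, a limit of 100 bp between summits and the nearest candidate summit were chosen after seeing the data. The share in both lists and the shared strongest summit have no value for a single replicate. No paired analysis was possible because there is only 1 group. The unknown depth and the lack of a control limit what weak summits show.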
